A study of Mus musculus with 8 samples.

Results

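The meiotic and piRNA germline genes described here are 10 genes chosen by name: the synaptonemal complex genes Sycp1 and Sycp3, the meiotic cohesin gene Stag3, the piRNA and transposon defence genes Tex19.1, Tdrkh, Fkbp6 and Mael, and the germ cell genes Dazl, Ddx4 and Tex101. They were chosen with earlier results of these data known, so counts of calls among them are a description and no support. Of the 10 genes, 8 were analysed among 32334 genes listed, and 7 were tested among 12717. Dazl and Ddx4 were not analysed here. Tex101 had less than 1 unit in every library, and its values are given without the main test. RNA was measured by bulk poly(A) RNA-seq in 8 libraries of mouse R1 cells, 2 for each of 4 groups: dCD EpiLC, WT EpiLC, dCD EpiSC and WT EpiSC. The dCD line is 1 clonal line of R1 embryonic stem cells whose H3K4 methyltransferases MLL3 (KMT2C) and MLL4 (KMT2D) both carry point mutations that remove catalytic activity, and WT is the R1 line, so the genotype cannot be told apart from the clone. EpiLC are epiblast-like cells, harvested on day 2, and EpiSC are epiblast stem cells kept for at least 8 days. Both were grown in activin A (20 ng/ml) and bFGF (12 ng/ml) from embryonic stem cells held in PD0325901 (0.4 µM), CHIR99021 (3 µM) and LIF. The EpiLC medium also held the supplement KSR and EpiSC were passaged, so the stages differed in culture as well as in time. No label says whether replicates came from separate cultures, so the p values measure the spread between these libraries, which may be technical.

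In meiosis, cohesin with germline subunits ties sister chromatids together, and the synaptonemal complex zips paired homologous chromosomes along protein axes. PIWI-interacting RNAs (piRNAs) are short RNAs of germ cells that guide PIWI proteins to transposon transcripts, and much of their processing takes place in granules beside mitochondria. Many genes of both systems have promoters rich in CpG that are methylated and silent in somatic tissues, and in pluripotent cells they are also held down by the repressor complex PRC1.6, whose subunits E2F6 and MGA with MAX bind E2F sites and E-boxes.

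Values are deposited abundances corrected for transcript length (transcript abundance scaled to a common total, TPM, times 1 factor per library), called units below, and the read depth behind them is unknown. Column sums lay between 813537 and 1033290, and mitochondrial genes took 2.63 to 4.12% of them. In EpiLC, long transcripts read lower relative to short ones in dCD replicate 1 and WT replicate 2 than in the other library of each group. A list of epiblast markers, which holds Pou5f1 and Sox2, summed to 2600 to 3020 units in dCD EpiLC, against 3040 to 3110 in WT EpiLC, and to 2280 to 2400 in dCD EpiSC, against 2600 to 2710 in WT EpiSC. Of its 11 tested genes 2 were called higher and 0 lower in dCD EpiLC, and 2 higher and 2 lower in dCD EpiSC. Shares over all tested genes are given with the calls below. The stages stand in separate tables that may be scaled apart, so levels are set side by side across stages without a test.

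The called changes ran in opposite directions at the 2 stages. In dCD EpiLC Tex19.1, Fkbp6 and Stag3 were higher than in WT and none of the 7 tested genes was lower, whereas in dCD EpiSC Sycp3, Tdrkh, Stag3, Tex19.1 and Mael were lower and none was higher. Among all tested genes, 7.56% were called higher and 2.57% lower in dCD EpiLC, and 7.57% higher and 6.91% lower in dCD EpiSC. Calls are adjusted p values under 0.05 in limma with Benjamini-Hochberg adjustment over all tested genes. The 8 genes with values summed to 132 to 151 units in dCD EpiLC, against 75.1 to 83.8 in WT EpiLC, and to 25.4 to 26.2 units in dCD EpiSC, against 80.4 to 95.1 in WT EpiSC. In bulk RNA, fewer cells that express a gene and less RNA in each cell cannot be told apart.

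**Figure D1:**
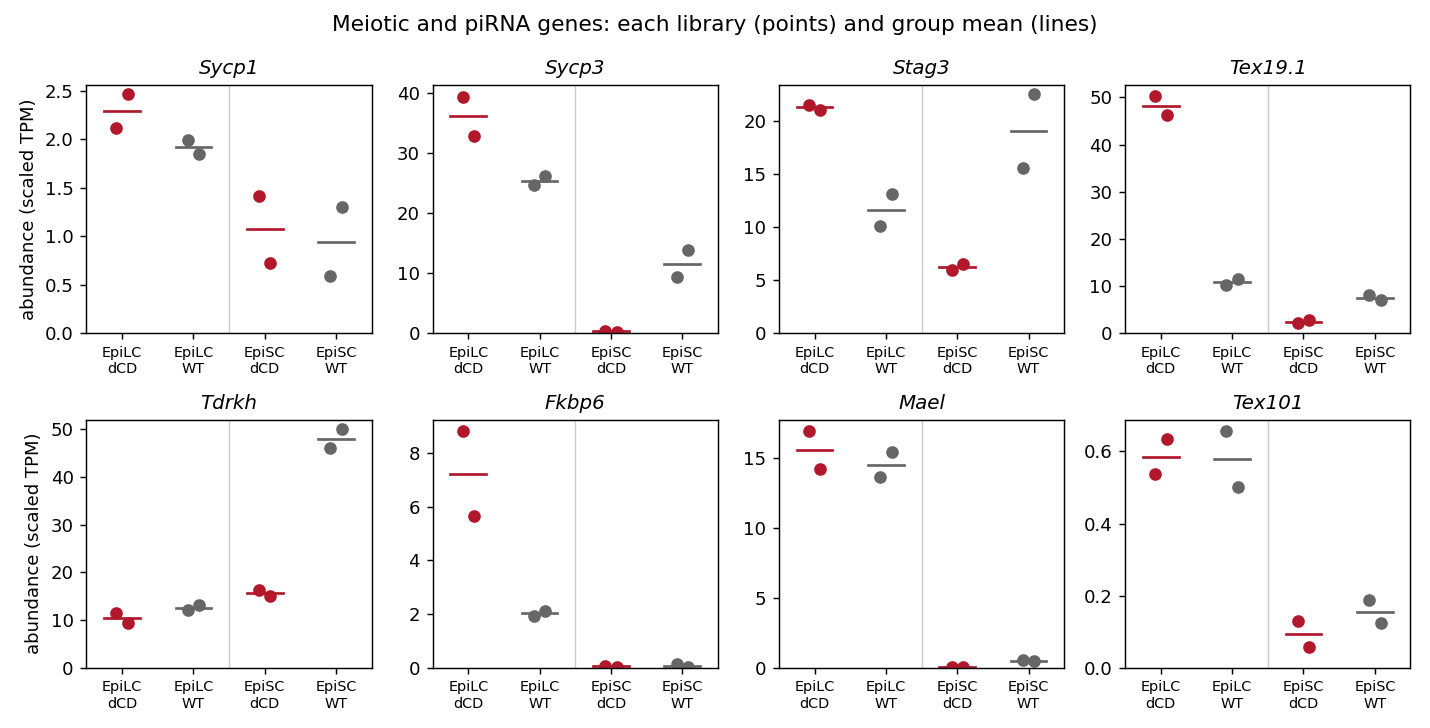
Abundance in units (scaled TPM, linear axis from 0) of the 8 genes with values, where points are the 2 libraries of each group and lines the group mean. Tex19.1 stood highest in dCD EpiLC (46.2 and 50.3), and Sycp3 was under 0.4 in both dCD EpiSC libraries.

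Sycp3 encodes the main protein of the axes that flank the synaptonemal complex (chromosome 10, 88459569 to 88473236, plus strand, GRCm38). It had 0.355 and 0.226 units in dCD EpiSC, against 9.26 and 13.7 in WT EpiSC. Both dCD libraries lay far below both WT libraries, and the WT mean was 39.6 times the dCD mean, which was only 0.29 units. The test used log2(value + 1), which compresses this ratio (log2 fold change -3.25 ± 0.19 SE, adjusted p = 0.000368). The log2 fold change was -4.89 with a pseudocount of 0.1 in place of 1 and -1.63 with 5. In EpiLC the same gene had 39.3 and 32.8 units in dCD, against 24.5 and 26.2 in WT. The groups did not overlap there either, with dCD above WT, but the difference did not pass the test (log2 0.49 ± 0.19, adjusted p = 0.173). Its dCD effect in EpiSC was lower than that in EpiLC by the test of the difference itself (log2 -3.74 ± 0.27, adjusted p = 0.00106). Sycp3 lies within the span of Chpt1, a choline phosphotransferase gene on the opposite strand, and no source says whether quantification used strand. Chpt1 had 5.69 and 5.02 units in dCD EpiSC, against 7.28 and 7.66 in WT EpiSC (adjusted p = 0.0578), a far smaller difference than that of Sycp3.

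Sycp1 encodes the transverse filament that spans the gap between the axes (chromosome 3, 102818499 to 102936100). It had 2.12 and 2.47 units in dCD EpiLC, against 1.99 and 1.85 in WT EpiLC. The dCD libraries lay just above the WT libraries, and the difference did not pass (log2 0.17 ± 0.23, adjusted p = 0.724). In EpiSC the values were 1.42 and 0.722 units in dCD, against 0.586 and 1.30 in WT, and the groups overlapped (log2 0.10 ± 0.23, adjusted p = 0.847). Of the structural genes of the synaptonemal complex among the 8, Sycp3 passed the test in EpiSC and Sycp1 did not, and no test compared the 2 genes. Sycp1 was so low in WT EpiSC that log2(value + 1) left little room for a fall. A pseudogene copy, Sycp1-ps1, was listed at 0 in all libraries.

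Stag3 encodes a cohesin subunit made in germ cells (chromosome 5, 138280240 to 138312393, plus strand). It had 5.89 and 6.49 units in dCD EpiSC, against 15.6 and 22.5 in WT EpiSC. Every dCD library was below every WT library, the WT mean being 3.08 times the dCD mean (log2 -1.46 ± 0.19, adjusted p = 0.00417). In EpiLC it had 21.48 and 21.03 units in dCD, against 10.1 and 13.1 in WT, and here dCD lay above WT without overlap. The EpiLC call (log2 0.83 ± 0.19, adjusted p = 0.0398) was close to the threshold and passed in 9 of 22 alternative settings. Without WT EpiLC replicate 1 its adjusted p was 0.231, without WT EpiLC replicate 2 it was 0.0829, and without dCD EpiLC replicate 1 it was 0.0795. Leaving out dCD EpiSC replicate 1 or 2, which changes only the shared estimate of spread, gave 0.0803 or 0.0804. The difference of its effects between stages passed in all 21 alternatives run (log2 -2.29 ± 0.27, adjusted p = 0.00425). Gpc2, a glypican gene on the opposite strand, starts 235 bases from the start of Stag3. Gpc2 had 22.1 and 23.3 units in dCD EpiSC, against 15.4 and 16.7 in WT EpiSC. The divergent neighbour was thus higher where Stag3 was lower, by a call close to the threshold (log2 0.48 ± 0.13, adjusted p = 0.0485). In EpiLC Gpc2 had 9.31 and 11.3 units in dCD, against 8.71 and 7.98 in WT. There both genes were higher in dCD without overlap, though Gpc2 did not pass (log2 0.27 ± 0.13, adjusted p = 0.251).

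Tex19.1 encodes a mammalian germ cell protein that limits retrotransposons and is also made in the placenta (chromosome 11, 121146143 to 121148319). It had 50.3 and 46.2 units in dCD EpiLC, against 10.1 and 11.5 in WT EpiLC. Both dCD libraries stood far above both WT libraries, and the ratio of means was 4.45 (log2 2.06 ± 0.15, adjusted p = 0.00051). In EpiSC it had 2.11 and 2.77 units in dCD, against 8.08 and 6.94 in WT. The order was turned round without overlap, and Tex19.1 fell (log2 -1.31 ± 0.15, adjusted p = 0.00243). Both calls and the difference between them (log2 -3.37 ± 0.21, adjusted p = 0.000769) passed in every alternative run. Its neighbouring paralogue Tex19.2 stayed under 1 unit in every library, with 0.816 and 0.753 in dCD EpiLC, against 0.786 and 0.574 in WT EpiLC.

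Tdrkh encodes a Tudor and KH domain protein on mitochondria that holds PIWI proteins while piRNA ends are trimmed (chromosome 3, 94413273 to 94434668). It had 16.3 and 15.0 units in dCD EpiSC, against 46.02 and 50.01 in WT EpiSC. The groups were well apart, with the WT mean 3.07 times the dCD mean (log2 -1.56 ± 0.13, adjusted p = 0.000879). In EpiLC it had 11.5 and 9.40 units in dCD, against 12.1 and 13.2 in WT, with dCD below WT and no call (log2 -0.25 ± 0.13, adjusted p = 0.29). Tdrkh was thus the 1 gene of the 7 whose dCD libraries lay below WT at both stages. It was also the most abundant of the 8 in WT EpiSC and, unlike the other 7 apart from Stag3, had a higher WT mean in EpiSC (48.0 ± 2.82) than in EpiLC (12.6 ± 0.778, SD, n = 2 each), a comparison across tables with no test.

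Fkbp6 encodes a co-chaperone of the FKBP family that takes part in piRNA production and is needed for male meiosis (chromosome 5, 135291704 to 135350044, minus strand). It had 8.81 and 5.67 units in dCD EpiLC, against 1.95 and 2.13 in WT EpiLC. Both dCD libraries exceeded both WT libraries, with a ratio of means of 3.56 (log2 1.41 ± 0.19, adjusted p = 0.00556). The dCD libraries were the less alike of the 2 groups. Without WT EpiLC replicate 1 the adjusted p was 0.0524. In EpiSC the gene was close to 0 in both genotypes, at 0.0508 and 0.0447 units in dCD, against 0.123 and 0.0196 in WT, and no fold is given. On log2(value + 1) its EpiSC effect (-0.03 ± 0.19) could hardly leave 0, so the difference between stages restates the EpiLC effect. That difference was called (log2 -1.44 ± 0.27, adjusted p = 0.0185), but was lost with a pseudocount of 0.1 (adjusted p = 0.0757) or when WT EpiLC replicate 1 (0.0782) or 2 (0.0624), WT EpiSC replicate 1 (0.0749) or 2 (0.0707), or dCD EpiSC replicate 1 (0.0647) or 2 (0.0712) was left out.

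Mael encodes Maelstrom, an HMG-box protein of transposon silencing in germ cells (chromosome 1, 166201201 to 166238747, minus strand). It had 16.9 and 14.2 units in dCD EpiLC, against 13.6 and 15.4 in WT EpiLC, and the groups overlapped (log2 0.09 ± 0.13, adjusted p = 0.756). In EpiSC it was under 1 unit throughout, with 0.0208 and 0.0366 in dCD, against 0.542 and 0.458 in WT. Both dCD libraries were below both WT libraries, and the WT mean was 17.4 times the dCD mean, which the log2(value + 1) scale compresses to -0.54 ± 0.13 (adjusted p = 0.0391). This call is weak: it passed in 11 of 22 alternatives and the gene entered the EpiSC test only through its EpiLC values. The call ended without any 1 of the 4 EpiSC libraries (adjusted p 0.152 to 0.191), or without WT EpiLC replicate 1 (0.0698) or 2 (0.0693).

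Tex101 encodes a surface protein of testis germ cells that takes part in sperm function. It had 0.537 and 0.635 units in dCD EpiLC, against 0.658 and 0.502 in WT EpiLC, and 0.129 and 0.0567 in dCD EpiSC, against 0.187 and 0.124 in WT EpiSC. The groups overlapped at both stages. With no filter on low values its log2 fold changes were 0.01 ± 0.07 (adjusted p = 1) in EpiLC and -0.08 ± 0.07 (adjusted p = 0.639) in EpiSC.

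**Figure D2:**
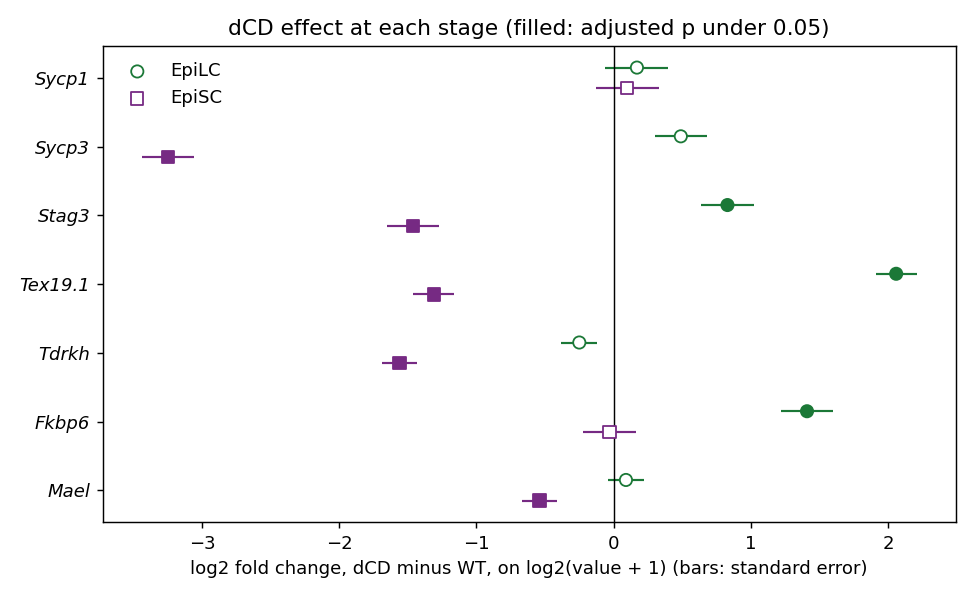
Log2 fold change of dCD over WT on log2(value + 1) for the 7 tested genes, circles for EpiLC and squares for EpiSC, filled where the limma adjusted p was under 0.05, with bars of 1 standard error. Tex19.1 and Stag3 have filled points on both sides of 0, and Sycp1 has none.

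Counted over libraries, 5 of the 8 genes had both dCD EpiLC libraries above both WT EpiLC libraries (Sycp1, Sycp3, Stag3, Tex19.1 and Fkbp6), 1 had them below (Tdrkh) and 2 overlapped. That order was found above for 26.8% and below for 17.7% of all tested genes. In EpiSC 5 of 8 had both dCD libraries below both WT libraries (Sycp3, Stag3, Tex19.1, Tdrkh and Mael), 0 above, and 3 overlapped, where 36.5% of all tested genes had dCD below and 35.0% above. The median log2 fold change of the 7 tested genes was 0.49 in EpiLC and -1.31 in EpiSC, beside 0.03 and -0.01 over all tested genes. Stag3 and Tex19.1 were called higher in EpiLC and lower in EpiSC, a pattern of 86 genes or 0.676% of those tested. The difference of the dCD effects between stages was called negative for 5 of 7 (Sycp3, Tex19.1, Stag3, Tdrkh and Fkbp6) and positive for 0, the difference of Fkbp6 being little more than its EpiLC effect, against 6.72% negative and 3.66% positive of all tested genes (10.4% in either direction). All 7 tested genes also met the filter on the WT libraries alone, so none entered the test through a high value in dCD. Mael and Fkbp6, however, met it through their EpiLC libraries alone, and their EpiSC values lay under the filter.

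The order of levels differed between stages. In WT EpiLC Sycp3 was the most abundant (25.4 ± 1.15 units, SD, n = 2), followed by Mael (14.5 ± 1.22), Tdrkh (12.6 ± 0.778), Stag3 (11.6 ± 2.12) and Tex19.1 (10.8 ± 0.999), then at a distance Fkbp6 (2.04 ± 0.128), Sycp1 (1.92 ± 0.104) and Tex101 (0.580 ± 0.110). The libraries of Tdrkh and Stag3 overlapped, as did those of Stag3 and Tex19.1 and those of Fkbp6 and Sycp1, so these neighbours in the order did not differ beyond their spread. In dCD EpiLC Tex19.1 led (48.2 ± 2.88), ahead of Sycp3 (36.1 ± 4.59) and Stag3 (21.3 ± 0.318). WT EpiSC was led by Tdrkh, followed by Stag3, Sycp3 (11.5 ± 3.16) and Tex19.1 (7.51 ± 0.809), whose libraries did not overlap with those of their neighbours in the order. Mael (0.500 ± 0.0595) and Fkbp6 (0.0711 ± 0.0729), both above 1 unit in all EpiLC libraries, were under 1 unit in all EpiSC libraries.

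The promoter windows of these genes were all rich in CpG, but they differed in the motifs they held. All 10 matched the RefSeq table of promoter windows for GRCm38.p6, each reaching from 250 bases before to 50 bases after an annotated start. All 10 windows held 15 to 38 CpG dinucleotides, where the median of 32851 windows was 7 and 43.5% held at least 10. Both strands were searched for the E-box CACGTG, which reads the same on both strands, and for TCCCGC, the core shared by E2F sites, and no matches of the 2 motifs overlapped. Among the 8 genes with values, 5 windows held the E-box (Sycp1, Sycp3, Stag3, Fkbp6 and Mael), a motif found in 7.15% of all windows and in 10.9% of those with at least 10 CpG. The E2F core stood in 5 of 8 (Sycp1, Sycp3, Stag3, Tex19.1 and Mael), against 20.0% and 40.3%. Both motifs stood in 4 of 8, against 1.99% of all windows. The share with both was not counted among windows with at least 10 CpG, so this contrast does not allow for CpG content. A match is a description of the letters and not a bound site. The windows of the 5 genes whose difference between stages was called are shown 5′ to 3′ on the gene's strand. Capitals mark CACGTG, and TCCCGC or its reverse complement GCGGGA.
Sycp3, chr10:88459337-88459636, plus strand: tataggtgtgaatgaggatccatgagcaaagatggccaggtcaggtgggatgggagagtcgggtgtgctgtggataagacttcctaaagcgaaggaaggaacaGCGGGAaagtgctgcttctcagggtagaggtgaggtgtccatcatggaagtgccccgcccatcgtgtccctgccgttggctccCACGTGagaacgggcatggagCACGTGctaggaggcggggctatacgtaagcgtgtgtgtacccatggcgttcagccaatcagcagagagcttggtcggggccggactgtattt
Stag3, chr5:138280259-138280558, plus strand: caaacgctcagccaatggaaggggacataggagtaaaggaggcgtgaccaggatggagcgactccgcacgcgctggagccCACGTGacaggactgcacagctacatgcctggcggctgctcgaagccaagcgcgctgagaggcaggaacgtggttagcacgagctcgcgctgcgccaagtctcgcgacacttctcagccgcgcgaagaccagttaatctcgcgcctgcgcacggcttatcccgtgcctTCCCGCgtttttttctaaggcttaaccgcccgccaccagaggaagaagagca
Tex19.1, chr11:121145893-121146192, plus strand: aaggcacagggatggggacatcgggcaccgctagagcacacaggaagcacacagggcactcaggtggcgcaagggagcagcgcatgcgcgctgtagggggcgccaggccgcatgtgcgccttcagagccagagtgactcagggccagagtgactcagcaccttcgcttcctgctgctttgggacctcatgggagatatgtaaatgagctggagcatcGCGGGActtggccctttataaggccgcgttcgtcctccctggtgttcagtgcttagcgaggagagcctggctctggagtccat
Tdrkh, chr3:94412994-94413293, plus strand: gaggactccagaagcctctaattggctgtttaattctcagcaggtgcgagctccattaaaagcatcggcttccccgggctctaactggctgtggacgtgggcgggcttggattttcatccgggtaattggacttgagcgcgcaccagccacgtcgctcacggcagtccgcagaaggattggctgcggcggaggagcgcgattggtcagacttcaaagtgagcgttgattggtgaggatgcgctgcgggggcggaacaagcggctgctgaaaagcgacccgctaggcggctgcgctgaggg
Fkbp6, chr5:135349995-135350294, minus strand: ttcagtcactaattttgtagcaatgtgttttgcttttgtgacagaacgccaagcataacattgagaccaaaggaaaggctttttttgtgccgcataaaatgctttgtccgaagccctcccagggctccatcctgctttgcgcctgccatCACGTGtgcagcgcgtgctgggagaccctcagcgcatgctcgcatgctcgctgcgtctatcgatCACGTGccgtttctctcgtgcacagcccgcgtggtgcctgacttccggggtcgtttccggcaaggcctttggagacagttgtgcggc
The Sycp3 window held E-boxes whose first bases lay at -64 and -43 from the start and an E2F core at -147, and the Stag3 window 1 E-box at -170 and 1 E2F core at -2. Positions count from the RefSeq start. For Stag3 that start lies inside the gene span given earlier, so its whole window lies downstream of the gene start at 138280240. The Tex101 window (chromosome 7, 24672001 to 24672300, minus strand) also lies wholly downstream of its gene start, at 24676675. The counts above include both windows. Tex19.1 had the E2F core alone, at -33, and Fkbp6 had 2 E-boxes alone, at -101 and -37. A second RefSeq start of Fkbp6 gave another window, with 32 CpG and these E-boxes at -232 and -168, and the counts above use the first window of each gene. Neither motif stood in the Tdrkh window. The Sycp1 window held both motifs. The part of these motifs in the differences between dCD and WT was not tested.

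**Figure D3:**
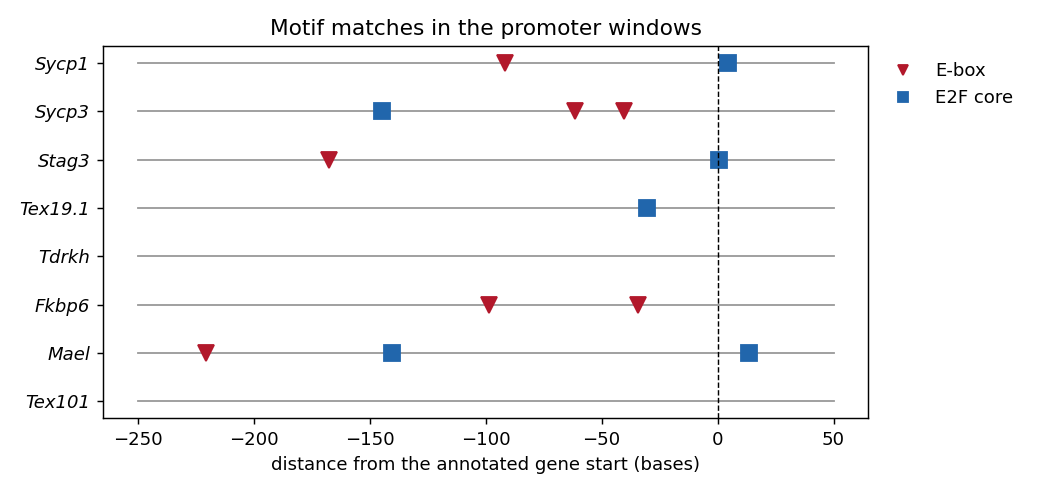
Positions of E-box (triangles) and E2F core (squares) matches in the promoter windows of the 8 genes with values, as distance in bases of the motif's centre from the annotated start (dashed line). Sycp3, Stag3, Sycp1 and Mael carry both kinds, and Tdrkh and Tex101 carry neither. The windows of Stag3 and Tex101 lie inside their gene spans.

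The other genes of meiosis held calls in the same directions. That list and those that follow were also chosen with earlier results of these data known, so their counts are a description and no support. Of 46 listed with values, 31 were tested, and 8 rose and 0 fell in dCD EpiLC, whereas 0 rose and 10 fell in dCD EpiSC (median log2 0.27 and -0.31). Over all tested genes 7.56% were called higher and 2.57% lower in dCD EpiLC, and 7.57% higher and 6.91% lower in dCD EpiSC. Of the 31, 26 met the filter on WT libraries alone, of which 5 rose in EpiLC and 10 fell in EpiSC. With no filter on low values 45 were tested, and 6 rose in EpiLC and 5 fell in EpiSC. Hormad2, an axis protein gene, had 5.64 and 6.53 units in dCD EpiLC, against 1.17 and 1.53 in WT EpiLC (log2 1.59 ± 0.18, adjusted p = 0.00302). Stra8, the retinoic acid target that starts meiosis, had 1.43 and 1.11 units in dCD EpiLC, against 0.172 and 0.152 in WT EpiLC (log2 0.96 ± 0.11, adjusted p = 0.00345), and was listed at 0 in all 4 EpiSC libraries. It met the filter only through the dCD EpiLC libraries, so its call is a description and no support. Rec8, the cohesin partner of Stag3 in meiosis, had 15.4 and 12.2 units in dCD EpiLC, against 6.15 and 6.44 in WT EpiLC (log2 1.01 ± 0.15, adjusted p = 0.00852). In EpiSC, where Stag3 fell, Rec8 had 0.81 and 0.87 units in dCD EpiSC, against 1.03 and 1.35 in WT EpiSC,, a difference that did not pass (adjusted p = 0.352). Tex11, a crossover gene, was also higher in dCD EpiLC (log2 0.86 ± 0.11, adjusted p = 0.00578).

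A large difference in EpiSC was also seen for 4930447C04Rik, which encodes the synaptonemal complex central element protein SIX6OS1. It had 1.75 and 0.993 units in dCD EpiSC, against 16.79 and 19.22 in WT EpiSC (log2 -3.02 ± 0.18, adjusted p = 0.000368). Syce3, another central element gene, had 0.103 and 0 units in dCD EpiSC, against 2.90 and 2.21 in WT EpiSC (log2 -1.75 ± 0.26, adjusted p = 0.00602). Among the other central element genes, Syce2 was also called lower, with a smaller log2 fold change. It had 47.15 and 38.49 units in dCD EpiSC, against 85.74 and 85.38 in WT EpiSC (log2 -0.99 ± 0.21, adjusted p = 0.024). Syce1 was near 0 in both genotypes and had no room to fall (adjusted p = 0.999), and Tex12 was below the filter and not tested. Ccdc36 (Iho1), which acts in forming meiotic DNA breaks, fell by 1.21 on the log2 scale (adjusted p = 0.00337), and AI481877 (Shoc1), a crossover gene, fell by 0.88 (adjusted p = 0.006).

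Of 24 other piRNA pathway genes with values, 12 were tested, all of which met the filter on WT libraries alone. In dCD EpiLC 3 rose and 0 fell, and in dCD EpiSC 1 rose and 3 fell (median log2 0.26 and -0.09). The shares over all tested genes were 7.56% higher and 2.57% lower in EpiLC, and 7.57% and 6.91% in EpiSC. With no filter all 24 were tested, and 2 rose in dCD EpiLC, while in dCD EpiSC 2 rose and 1 fell, so the balance of the EpiSC calls depended on the filter. Gtsf1l, a relative of the piRNA factor gene Gtsf1, had 17.6 and 11.6 units in dCD EpiLC, against 3.00 and 3.05 in WT EpiLC (log2 1.92 ± 0.19, adjusted p = 0.00187), and 1.27 and 1.47 in dCD EpiSC, against 5.15 and 5.28 in WT EpiSC (log2 -1.39 ± 0.19, adjusted p = 0.00461). Its 2 effects lay close to those of Tex19.1. Gpat2, a mitochondrial outer membrane protein of primary piRNA production, likewise rose in EpiLC (log2 1.12 ± 0.13, adjusted p = 0.00291) and fell in EpiSC (log2 -0.55 ± 0.13, adjusted p = 0.03). The exception was the granule component gene Tdrd7, higher in dCD at both stages (log2 0.53 in EpiLC, adjusted p = 0.0408, and 0.71 in EpiSC, adjusted p = 0.0117). Tdrd12 fell in dCD EpiSC (log2 -0.72 ± 0.18, adjusted p = 0.0383). Gpat2 and Tdrd12 lay near or under 1 unit in EpiSC and met the filter through EpiLC.

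Among 20 further germline genes known to depend on DNA methylation, 11 were tested, and 5 rose and 0 fell in dCD EpiLC (median log2 0.80), while 1 rose and 2 fell in dCD EpiSC (median -0.14). The shares over all tested genes were 7.56% higher and 2.57% lower in EpiLC, and 7.57% and 6.91% in EpiSC. Of the 11, 10 met the filter on WT libraries alone, of which 4 rose in EpiLC. Sohlh2, a transcription factor gene of early germ cells, had 10.9 and 10.9 units in dCD EpiLC, against 1.47 and 1.51 in WT EpiLC (log2 2.25 ± 0.11, adjusted p = 0.000125), and was listed at 0 in all EpiSC libraries. Tuba3a, a testis tubulin gene, rose by 1.65 in EpiLC (adjusted p = 0.00136), Taf7l by 0.98 (adjusted p = 0.00791) and Tktl1, which met the filter only through the dCD EpiLC libraries, by 0.89 (adjusted p = 0.00793). In EpiSC Rbmxl2, a testis RNA-binding protein gene, fell by 2.27 (adjusted p = 0.00149) and Zcwpw1, a histone methylation reader of meiotic cells, fell by 1.38 (adjusted p = 0.00454), whereas the acrosome gene Dkkl1 rose by 1.21 (adjusted p = 0.00998).

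**Figure D4:**
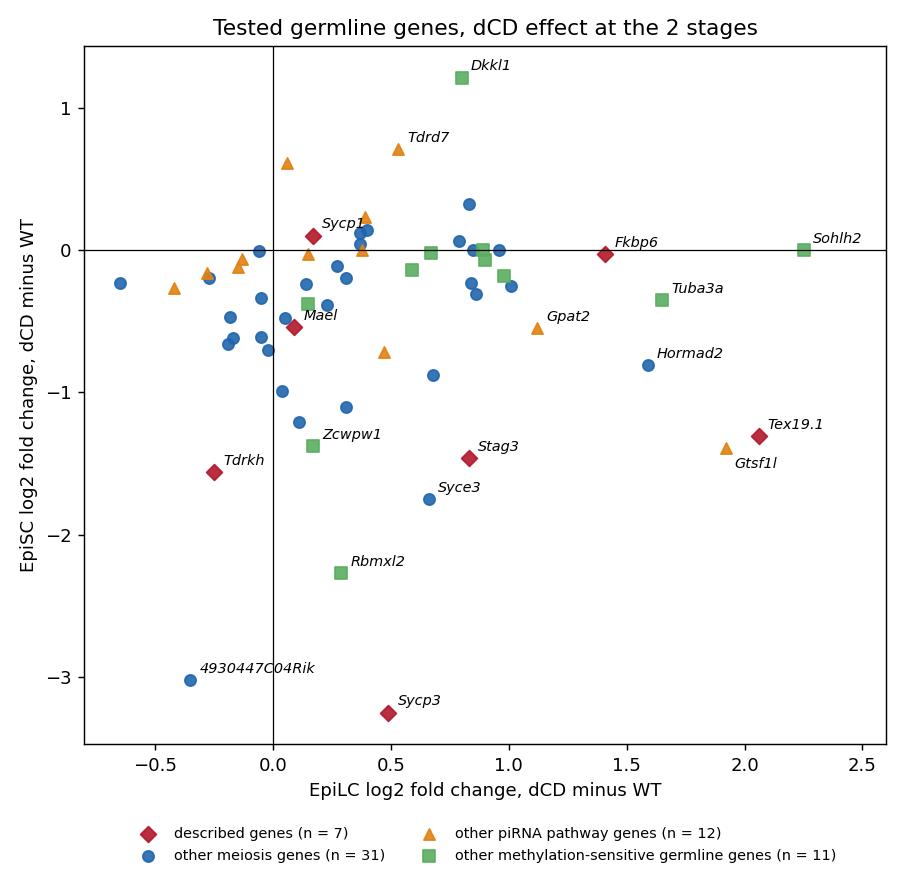
Log2 fold change of dCD over WT in EpiLC (horizontal) and EpiSC (vertical) for tested genes of the 4 germline lists, 1 marker per gene. Tex19.1 and Gtsf1l lie together at high EpiLC and low EpiSC values, while Sycp3 and 4930447C04Rik lie lowest on the EpiSC axis.

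Of 25 tested genes of the machinery that represses germline genes, 3 were higher and 0 lower in dCD EpiLC, and 1 higher and 3 lower in dCD EpiSC (median log2 -0.11 and -0.09). These shares were near those over all tested genes, of which 10.1% were called in EpiLC and 14.5% in EpiSC in either direction. Dnmt3l, a cofactor of the de novo DNA methyltransferases, had 33.2 and 25.9 units in dCD EpiLC, against 7.94 and 8.31 in WT EpiLC (log2 1.73 ± 0.16, adjusted p = 0.00132), and 0.237 and 0.0847 in dCD EpiSC, against 3.10 and 2.72 in WT EpiSC (log2 -1.75 ± 0.16, adjusted p = 0.0011). Zfp42 (REX1), which also stands in the naive pluripotency list, rose in EpiLC (log2 0.97 ± 0.15, adjusted p = 0.00979) and fell in EpiSC (log2 -1.24 ± 0.15, adjusted p = 0.0032). Both genes therefore had the same pair of directions as Tex19.1. The methyltransferase gene Dnmt3a was higher in dCD EpiLC (log2 0.63 ± 0.11, adjusted p = 0.0151). Of the PRC1.6 subunit genes, L3mbtl2 fell (log2 -0.36 ± 0.08, adjusted p = 0.0294) and Rybp rose (log2 0.56 ± 0.15, adjusted p = 0.0477) in dCD EpiSC, while the log2 fold changes of E2f6 (-0.20 and -0.11), Mga (-0.50 and -0.15) and Max (-0.14 and 0.13) in EpiLC and EpiSC did not pass.

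Markers of other cell states moved with genotype at the same time. Beside the counts that follow, 7.56% of all tested genes were called higher and 2.57% lower in dCD EpiLC. In dCD EpiSC the shares were 7.57% and 6.91%. The two-cell-like list, led by Zscan4f (19.7 and 18.5 units in dCD EpiLC, against 0.852 and 0.566 in WT EpiLC), summed to 60.1 to 64.3 units in dCD EpiLC, against 1.99 to 2.02 in WT EpiLC. All 10 of its tested genes rose, but 0 of the 10 met the filter on WT libraries alone, so their count is no support, and the Zscan4 genes are near-identical copies whose reads may be split between them. In EpiSC the list summed to 0.63 to 0.925 units in dCD, against 0.414 to 0.479 in WT, with Zscan4c, Zscan4d and Zscan4f at 0 in all 4 libraries. Naive pluripotency markers rose for 9 of 11 in dCD EpiLC, and for 7 of the 8 that met the filter on WT libraries alone (176 to 195 units, against 90.3 to 92.2 in WT EpiLC), and in dCD EpiSC 4 rose and 2 fell (136 to 142 units, against 92.4 to 97.2 in WT EpiSC). Primordial germ cell markers rose for 4 of 7 at each stage, at 171 to 228 units in dCD EpiLC, against 66.5 to 75.8 in WT EpiLC, and 197 to 244 in dCD EpiSC, against 121 to 146 in WT EpiSC. Tfap2c, an early germ cell marker, had 30.7 and 28.7 units in dCD EpiSC, against 3.38 and 2.43 in WT EpiSC. Prdm14, Dppa3 and Nanos3 were below the filter.

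Extraembryonic markers summed to 343 to 386 units in dCD EpiSC, against 108 to 168 in WT EpiSC (3 of 6 rose and 2 fell), and to 13.5 to 14.5 in dCD EpiLC, against 11.2 to 12.7 in WT EpiLC (1 rose and 1 fell). Fibroblast markers summed to 50.9 to 51.9 units in dCD EpiSC, against 29.3 in WT EpiSC (3 of 9 rose and 0 fell), and to 19.9 to 23.8 in dCD EpiLC, against 72.2 to 75.9 in WT EpiLC (0 rose and 3 fell). Of the spermatogonia and testis soma markers, 0 rose and 1 fell of 7 in dCD EpiLC, and 3 rose and 0 fell in dCD EpiSC, and the Leydig cell gene Cyp17a1 was at 0 in all EpiSC libraries. The part of these cell states in the differences of the germline genes was not tested.

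Across the 8 libraries, with each stage centred on its mean, the 3 genes whose log2 values followed Sycp3 most closely among 8896 genes were Prr19 (Pearson r = 0.996), Pdpn (0.993) and Ccdc194 (0.991). Prr19, a gene of meiotic crossover formation, had 2.14 and 2.24 units in dCD EpiSC, against 10.99 and 12.94 in WT EpiSC, and 8.10 and 6.24 in dCD EpiLC, against 5.09 and 5.64 in WT EpiLC. For Tex19.1 the closest were Trap1a (0.994), Ensa (0.993) and Apela (0.989). Trap1a, an X-linked gene first known as a tumour antigen, had 86.4 and 66.5 units in dCD EpiLC, against 6.684 and 7.004 in WT EpiLC, and 4.80 and 6.97 in dCD EpiSC, against 21.8 and 22.2 in WT EpiSC. The correlation takes no account of the size of an effect. In EpiSC the log2 fold change was -0.51 for Pdpn and -0.88 for Ccdc194, far smaller than that of Sycp3. Ensa was called at neither stage (log2 0.24 in EpiLC, adjusted p = 0.128, and -0.16 in EpiSC, adjusted p = 0.278). Apela was called at both (log2 1.64 and -1.11). The correlations rest on 4 groups of 2 libraries and are given as a description.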

How the data were processed

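The deposited values are a signal per gene for 8 libraries: the authors ran kallisto and then sleuth at the level of genes (Ensembl 96, mm10), and the tables' TPM appear multiplied by 1 factor per library, since column sums differ and 1 exceeds the total that TPM allow. The plan had assumed plain TPM. No version of kallisto or sleuth is stated in what was read here. The values keep no counts, so depth and its precision are unknown. Of all values, 42.2% were 0. Another 6 columns match no labelled sample and were left out.

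Symbols came from GENCODE M21 (32092 of 32334 genes), and 3 list names were matched through synonyms. With limma 3.58.1 in R 4.3.3, log2(value + 1) of genes with at least 1 unit in at least 2 libraries (12717) was fitted with 1 mean per group over all 8 libraries (eBayes with a trend, two-sided, Benjamini-Hochberg adjustment per contrast, calls at an adjusted p under 0.05). Contrasts were dCD minus WT in EpiLC, in EpiSC, and the EpiSC effect minus the EpiLC effect. The log2(value + 1) scale understates fold changes of low genes. The fit was tested on simulated data.

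All 10 named genes and the other lists (meiosis, piRNA, methylation-sensitive germline, repressors, two-cell-like, naive, primordial germ cell, epiblast, testis, fibroblast, extraembryonic) were chosen with earlier results of these data known. From each list up to 4 called genes with the smallest p per stage could be named. Neighbouring genes, Syce1, Syce2, Tex12, E2f6, Mga and Max were added after their values were seen. Motifs were counted in RefSeq windows with Python 3.11.15. The replicate numbers were not treated as pairs, and 22 alternative settings were run.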

Additional observations from a re-analysis of the deposited data

Results flagged for a closer look

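Each of the following results was singled out because the dCD effect in EpiSC differed from that in EpiLC by limma's test of the difference itself, with Benjamini-Hochberg adjustment over 12717 genes, and each value is the EpiSC effect minus the EpiLC effect on the log2 scale with its SE. Among the genes described, the difference was -3.74 ± 0.27 for Sycp3 (adjusted p = 0.00106), -3.37 ± 0.21 for Tex19.1 (adjusted p = 0.000769) and -2.29 ± 0.27 for Stag3 (adjusted p = 0.00425). It was -1.44 ± 0.27 for Fkbp6 (adjusted p = 0.0185), which was near 0 in all EpiSC libraries, and -1.30 ± 0.18 for Tdrkh (adjusted p = 0.00692). The other genes given here were picked from the lists because they were called higher in dCD EpiLC and lower in dCD EpiSC. The difference was -2.40 ± 0.26 for the axis gene Hormad2 (adjusted p = 0.003), -1.56 ± 0.18 for AI481877 (Shoc1; adjusted p = 0.00401), -3.31 ± 0.27 for Gtsf1l (adjusted p = 0.00147) and -1.66 ± 0.18 for Gpat2 (adjusted p = 0.003). For the repressor genes it was -3.49 ± 0.22 for Dnmt3l (adjusted p = 0.000769) and -2.21 ± 0.21 for Zfp42 (adjusted p = 0.00223). The signs of these 6 list genes follow from how they were picked. Other list genes were called in 1 direction at both stages and were not picked here. Among them Tfap2c had a difference of 1.46 ± 0.22 (adjusted p = 0.00914) and T one of -1.44 ± 0.18 (adjusted p = 0.00448), and those of Tdrd7, Dnd1 and Ascl2 did not pass. These are not all such genes, since 4 naive pluripotency markers were also called higher at both stages.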

How the results depend on the processing

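Of 22 alternatives, 3 were chosen after seeing the data: leaving out WT EpiLC replicate 2 and dCD EpiLC replicate 1 together, a crossed block, and removing each library's trend with transcript length. The EpiSC calls of Sycp3, Stag3, Tex19.1 and Tdrkh and the EpiLC call of Tex19.1 passed in all 22, with log2 fold changes of -4.89 to -1.63, -1.71 to -1.09, -1.59 to -0.75, -1.62 to -1.36 and 1.75 to 2.14 in that order. With each stage fitted alone, 1 of the genes was called higher in dCD EpiLC (Tex19.1) in place of 3, and no difference between stages could be computed. Leaving out 1 library at a time gave 1 to 3 genes higher in dCD EpiLC, 4 to 5 lower in dCD EpiSC and 4 to 6 with a negative difference between stages, and 1 remained in EpiLC (Tex19.1) without WT EpiLC replicate 1. Some values that passed no test changed sign: Mael in EpiLC was -0.02 without dCD EpiLC replicate 1 (range over left-out libraries -0.02 to 0.21), Sycp1 in EpiSC -0.17 and -0.15 without WT or dCD EpiSC replicate 1 (-0.17 to 0.36), and Fkbp6 in EpiSC 0.04 without WT EpiSC replicate 1 (-0.10 to 0.04) and 0.02 after quantile normalization. The difference for Sycp1 was 0.0015 without dCD EpiLC replicate 2, 0.19 and 0.17 without WT or dCD EpiSC replicate 2 (-0.34 to 0.19), 0.07 after quantile normalization and 0.01 with mitochondrial genes removed.

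The replicate numbers did not pair the libraries (replicate differences of dCD and WT correlated at -0.583 in EpiLC and -0.00662 in EpiSC across genes). With the replicate block, 2 genes were called higher in dCD EpiLC, 4 lower in dCD EpiSC and 3 with a negative difference (Sycp3, Stag3 and Tex19.1), the adjusted p of Tdrkh's difference being 0.0718. Calls over all genes with the block were 303 higher and 48 lower in EpiLC, 335 and 247 in EpiSC, and 93 and 211 for the difference, against 961 and 327, 963 and 879, and 465 and 854 without it. The crossed block in EpiLC gave 1745 higher and 963 lower calls. Over all alternatives EpiLC calls ran from 289 to 1893 higher and 48 to 1387 lower, EpiSC calls from 274 to 2036 and 233 to 2124, and difference calls from 93 to 1366 and 211 to 1859. Quantile normalization split the EpiLC calls into 768 higher and 538 lower. Values near 0, as for Fkbp6, Mael and Tex101 in EpiSC, carry no known depth, and 2 libraries per group limit every estimate.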
